A study of Mus musculus with 3 samples.

Results

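This account describes 35 genes that were highest in Th22 cells alone, out of 19938 genes measured in mouse CD4 T cells. The genes were chosen by the measured values themselves: a gene was taken where its value on the Th22 array lay at least 1 log2 unit, a 2-fold difference, above both the Th0 array and the Th17 array. Of 48 such genes 11 were left out by name, such as Il23r and Lum, and 2 as gene models. Splenic T cells were used from OT-II mice (B6.Cg-Tg(TcraTcrb)425Cbn/J), which carry a transgenic receptor for an ovalbumin peptide. They were sorted as naive cells (CD4+CD25-CD62LhighCD44low) and activated with that peptide on T-cell-depleted splenic antigen-presenting cells of Il23a-/- mice, which cannot make IL-23. All 3 cultures shared this receptor and these presenting cells. Th0 cells had no added cytokine, Th22 cells had IL-6 alone, and Th17 cells had IL-6 with TGFβ. RNA was taken from cells purified by magnetic sorting after 60 hours, and each condition had 1 biotin-labelled Affymetrix array. The ages of the mice, and whether animals were pooled, are not stated in the labels.

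IL-6 signals through its receptor and the gp130 chain to Janus kinases and the transcription factor STAT3. TGFβ signals through Smad proteins, and together with IL-6 it drives naive CD4 T cells towards the Th17 program, while it lowers IL-22 production. IL-22 from T cells acts on epithelial cells of skin and gut, which carry its receptor, rather than on the T cells. The pair of probes that match both Il22 and its copy Iltifb, the cytokine after which the subset is named, lay 4.85 and 4.84 log2 above Th0 on the Th22 array and 3.07 and 3.04 log2 above Th17.

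Every value below is a difference from the gene's middle array, because the deposited table is centred on each probe's median over the 3 arrays. Folds assume that the logs are base 2, which the sources used here do not state. That a higher value means more RNA is likewise assumed. The centring removed the levels, so neither the abundance of a gene nor its signal over background is known, and the labelled cell type could not be checked against the level of its markers. Of all genes 37.7% had exactly equal values on the 3 arrays, and whether these were detected at all cannot be told. Equal values are thus not read as unchanged expression. The same holds for Muc13 and Sox5, exactly equal on Th0 and Th17. With 1 array a group there was no test and no replicate check. The values that chose the genes are the same ones given here, so they are a description and support nothing by themselves. Since RNA was measured in bulk, more cells expressing a gene and more RNA per cell cannot be told apart.

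Among the 35 genes, Th22 exceeded Th0 by 1.001 to 2.37 log2, with a median of 1.27 (2.41-fold), and exceeded Th17 by 1.03 to 2.91 log2, with a median of 1.46 (2.76-fold). The median over all 19938 genes was 0 in both comparisons. Over all genes, 0.547% lay at least 1 log2 above Th0 on the Th22 array, 1.5% lay that far above Th17, and 0.241% were past both, which is the share the rule fixes. The 48 genes past both were 44.0% of the 109 higher than Th0 and 16% of the 300 higher than Th17. By the same rule 201 genes were highest in Th17 alone and 46 in Th0 alone. Of the 35 genes, 2 (Moxd1 and Itga3) were at least 4-fold above both other arrays.

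**Figure D1:**
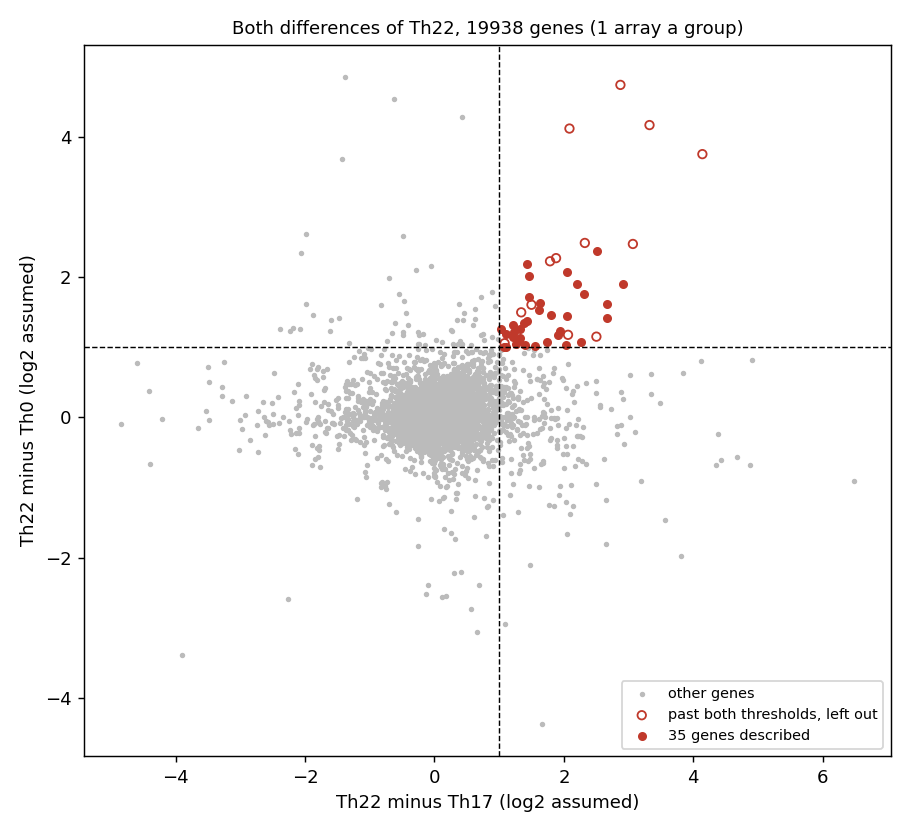
Each point is 1 of 19938 genes, with Th22 minus Th17 on the horizontal axis and Th22 minus Th0 on the vertical axis, both in log2 units. The dashed lines mark 1, filled red points are the 35 genes described and open red points the 13 genes that passed both lines but were left out, and the 35 lie mostly close to the corner, with 11 of them under 1.1 on the smaller of both differences.

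Moxd1, which encodes a copper monooxygenase related to dopamine β-hydroxylase, had the largest smaller difference. It stood at 2.37 on the Th22 array, 0 on Th0 and -0.14 on Th17, and was thus 5.19-fold above Th0 and 5.70-fold above Th17. Promoter windows of RefSeq, build GRCm38.p6, were searched for the letters TTCNNNGAA, the core that STAT factors bind, because IL-6 acts through STAT3. Windows run from 250 bases before to 50 after a gene's start, and both strands were read. Of the 35 genes, 28 had at least 1 window, 39 in all, and 3 windows held the letters, those of Moxd1, Tgm1 and Muc13. Those windows are shown 5′ to 3′ in the gene's direction, with the 9 matching letters in capitals.
Moxd1, chr10:24223267-24223566, strand plus: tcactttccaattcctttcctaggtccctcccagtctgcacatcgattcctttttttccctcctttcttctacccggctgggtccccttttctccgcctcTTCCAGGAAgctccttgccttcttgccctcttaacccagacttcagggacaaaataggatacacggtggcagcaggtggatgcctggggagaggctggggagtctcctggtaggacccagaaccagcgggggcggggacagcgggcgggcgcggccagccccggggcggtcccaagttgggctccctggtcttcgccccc
Tgm1, chr14:55713443-55713742, strand minus: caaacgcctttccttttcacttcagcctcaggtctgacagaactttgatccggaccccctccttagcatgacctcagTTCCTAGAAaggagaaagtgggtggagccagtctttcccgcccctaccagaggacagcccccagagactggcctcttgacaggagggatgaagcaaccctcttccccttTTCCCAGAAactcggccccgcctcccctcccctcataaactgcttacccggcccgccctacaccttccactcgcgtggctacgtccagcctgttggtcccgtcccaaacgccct
Muc13, chr16:33793787-33794086, strand plus: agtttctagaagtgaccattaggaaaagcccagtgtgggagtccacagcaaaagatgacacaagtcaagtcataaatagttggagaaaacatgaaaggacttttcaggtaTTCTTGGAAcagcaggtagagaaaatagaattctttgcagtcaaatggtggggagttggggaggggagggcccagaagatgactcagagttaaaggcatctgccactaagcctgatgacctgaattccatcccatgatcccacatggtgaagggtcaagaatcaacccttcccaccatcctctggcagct
Tgm1 held the letters at 2 places and the other 2 genes at 1 each.

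The share of windows with the STAT letters was 7.69% among the 35 genes and 8.30% among all 32851 windows. The letters TGANTCA of AP-1 were in 12.8% of the 39 windows against 7.81% of all, and the ROR letters AGGTCA in 23.1% against 16.3%. The interferon element, GAAA with any 2 bases and then GAAA, was in 4 windows, those of Gstt1, Ebf1, Itga3 and Tgm1 (10.3% against 3.44%). The NF-κB letters, GGG with any 2 bases and then TTTCC, were in 1, that of Muc13 (2.56% against 1.63%). No matches of different motifs overlapped. Several windows belong to the same gene, and counted by gene the shares were 10.7% of 28 against 9.55% of all for STAT and 10.7% against 8.97% for AP-1. By gene they were 28.6% against 18.1% for ROR, 14.3% against 3.99% for the interferon element and 3.57% against 1.89% for NF-κB. These are counts of letters and show no binding.

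Of the 35 genes 4 encode secreted proteins. Decorin (Dcn), a small leucine-rich proteoglycan of the extracellular matrix that binds collagen and TGFβ, lay at 1.47 on Th22, 0 on Th0 and -0.33 on Th17. Inhba, which encodes the chain that pairs to form activin A, a ligand of the TGFβ superfamily, lay at 1.07, 0 and -0.67 in the same order. Serpinf1, which encodes the non-inhibitory serpin PEDF, lay at 1.03 on Th22, -0.22 on Th0 and 0 on Th17. H2-Q10, a secreted class I-like protein gene, passed the threshold most narrowly, at 1.001, 0 and -0.07.

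The 7 surface receptor genes had a median of 1.72 log2 over Th0 and 1.42 over Th17. Itga3, the integrin chain that joins β1 to bind laminins, lay at 2.04 on Th22, -0.03 on Th0 and 0 on Th17. Th0 and Th17 were thus almost level for it, and Th22 was 4.22-fold above Th0 and 4.12-fold above Th17. Cxcr1, a receptor for neutrophil-attracting chemokines, lay at 1.42, -0.77 and 0, and Il13ra1, the chain that joins IL-4Rα to bind IL-13, at 1.46, -0.55 and 0. In these 2 genes Th17 stood between the others, 1.70-fold and 1.47-fold above Th0. Gipr, the receptor for the gut hormone GIP, lay at 1.46, -0.27 and 0. Npr3, the natriuretic peptide clearance receptor, lay at 1.22, -0.11 and 0, and Egfr, the epidermal growth factor receptor, at 1.01, 0 and -0.10. The olfactory receptor gene Olfr60 lay at 1.27, 0 and -0.05 by its own probe, but 3 probes that it shares with other olfactory receptor genes were only 0.29 to 0.58 log2 higher in Th22 than in Th0. Counting those probes took Olfr60 below the threshold.

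Another 5 genes encode membrane proteins that are not classical receptors. Ifitm1, an interferon-induced protein that hinders virus entry, lay at 1.76 on Th22, 0 on Th0 and -0.56 on Th17. Its 2 probes gave 1.51 and 2.01 log2 over Th0 and 2.13 and 2.51 over Th17, so each passed alone. Muc13, a membrane mucin of epithelia, lay at 1.63 on Th22 and at exactly 0 on both other arrays. Cd93, a lectin-like protein of endothelial and myeloid cells, lay at 1.35, 0 and -0.04. Stom, which encodes the membrane scaffold stomatin, was 2.28-fold above Th0, and Cpm, a membrane-anchored carboxypeptidase that trims basic residues from peptides, 2.14-fold.

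The 3 transcription factor genes are known from other lineages. Ebf1, which B cell development requires, lay at 1.62 on Th22, 0 on Th0 and -1.05 on Th17, a spread of 2.67 log2 from highest to lowest. Sox5, an HMG-box factor of cartilage development, lay at 1.22 on Th22 and at exactly 0 on both others. Foxf1, a forkhead factor of lung and gut mesenchyme, had a mean of 1.09 log2 over Th0 from 2 probes that disagreed, at 0.66 and 1.52, and only the second passed alone. Ifitm1 and Foxf1 were the only 2 of the 35 genes with more than 1 probe, and the other 33 rested on a single one.

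Of 5 signalling genes, S100a6, which encodes a calcium-binding EF-hand protein, was highest, at 1.90 on Th22, 0 on Th0 and -0.30 on Th17. Ptpn14, a cytoplasmic tyrosine phosphatase that binds YAP, lay at 1.45, 0 and -0.59. Prkar1b, a regulatory subunit of protein kinase A, was 2.18-fold above Th0. Rapgef5, an exchange factor for Rap GTPases, was 2.08-fold above Th0, and Gnal, a G protein chain that activates adenylyl cyclase, 2.03-fold. All 5 were lower in Th17 than in Th0 by some amount, as were 26 of the 35 genes. For S100a6, Prkar1b and Rapgef5 the difference was only -0.30, -0.19 and -0.21 log2, within the range between probes given below. Ermn, which encodes an actin-binding protein known from oligodendrocytes, showed the widest gap to Th17 of the 35 genes, with 1.91 on Th22, 0 on Th0 and -1.01 on Th17 (7.53-fold above Th17). Dnm1, the neuronal dynamin that pinches off vesicles, lay at 1.23, 0 and -0.71.

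Beside Moxd1, 4 genes encode enzymes. Tgm1, the transglutaminase that cross-links the outer layer of skin, lay at 1.42 on Th22, 0 on Th0 and -1.25 on Th17, and was 6.37-fold above Th17. Upp1, which splits uridine, lay at 1.08, 0 and -1.18. Gstt1, a glutathione transferase of the theta class, lay at 1.18, 0 and -0.72, and the aldo-keto reductase gene Akr1b8 at 1.37, 0 and -0.05. The first 3 were thus lowest in Th17 and the fourth almost level between Th0 and Th17. Among 3 transport genes, Atp6v0d2, a membrane-sector subunit of the vacuolar proton pump, was 2.91-fold above Th0. The glutamine carrier gene Slc38a3 was 2.05-fold above Th0, and Kdelr3, a receptor that returns proteins to the endoplasmic reticulum, lay at 1.03, 0 and -1.01. Fam183b was 2.21-fold above Th0 and 2.31-fold above Th17.

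**Figure D2:**
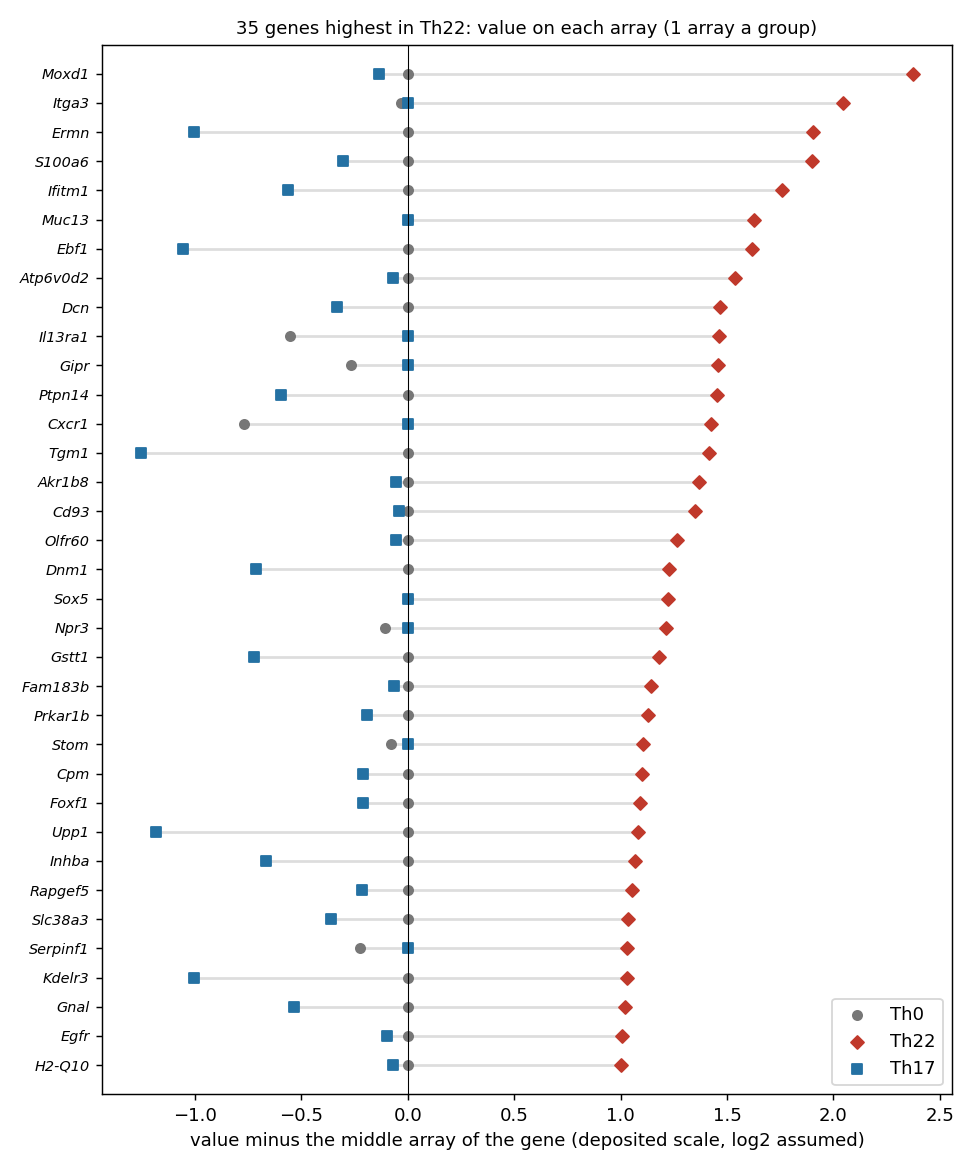
The value of each of the 35 genes on the Th0 (grey circle), Th22 (red diamond) and Th17 (blue square) array, in log2 units from the gene's middle array, ordered by the smaller of both differences of Th22. The grey and blue points coincide or nearly coincide for genes such as Muc13, Sox5 and Itga3, while the blue point lies at or beyond -1 for Ermn, Ebf1, Tgm1, Upp1 and Kdelr3.

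The 35 genes differed among themselves in where Th17 stood. Th17 was below Th0 by some amount in 26, exactly equal in 2 and above in 7, with a median of -0.19 log2. For scale, 95% of 999 genes with several probes had probes within 0.43 log2 of each other in this comparison. Th17 lay within that range of Th0 in 22 of the 35 genes. In 6 more it was lower by more than that but under 2-fold, namely Ifitm1, Ptpn14, Dnm1, Gstt1, Inhba and Gnal. In 2 it was higher by more than that, Cxcr1 and Il13ra1. In the last 5, Ermn, Ebf1, Tgm1, Upp1 and Kdelr3, it was at least 2-fold lower, and in none was it at least 2-fold higher. None of these 5 was 2-fold lower once the arrays were forced to a common spread, lying at -0.77 to -0.61 log2 after quantile normalization and at -0.86 to -0.69 after equal spread. Both scalings shrink large values of the Th17 array, whose SD was the largest, so that outcome is no check of these genes. Over all genes, Th17 lay at least 1 log2 under Th0 in 1.56% and at least 1 log2 over it in 1.47%. The median of Th17 minus Th0 over all genes was 0. How many of all genes lay below or above Th0 by any amount, or within the probe range, was not counted. The rule used both of these arrays, so nothing is read from the difference between 5 and 0. The same holds for the 26 genes below and the 7 above. The probe range holds only the error between probes and says nothing of how cultures vary. It was taken over all 999 genes, flat ones included, so probes of genes that differ may disagree more.

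The genes nearest the threshold were close to those outside it. Just inside were Kdelr3 (1.03 on the smaller difference), Gnal (1.02), Egfr (1.01) and H2-Q10 (1.001). Just outside were Siah3 (0.99), the IL-36 receptor gene Il1rl2 (0.98), Id3, which encodes an inhibitor of E proteins (0.97), and Tpbg (0.97). The gaps between them were far smaller than the range between probes.

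Relatives and partners of 31 of the genes were looked up to see whether a whole family stood high, from lists drawn up after the genes were known. Of 136 such relatives 2 were past both thresholds, Lum and Cxcr2, 2 were at least 2-fold higher than Th0 and 7 at least 2-fold higher than Th17, with a median of 0 in each comparison, and 62 were equal on all 3 arrays. Over all genes the shares were 0.241% past both, 0.547% over Th0 and 1.5% over Th17. Since the lists were drawn up around the genes, the counts are not read against these shares. Among the 17 integrin genes set beside Itga3 the highest over Th0 was Itga6, at 0.93 log2, and none passed. The other ErbB receptors and their ligands lay between -0.24 and 0.57 log2 of Th0, with 6 of 9 equal on all arrays. Of the genes around Il13ra1, the cytokine genes Il13 and Il4 were lower in Th22 than in Th0, by -2.94 and -2.20 log2. Around Inhba, the inhibin chain gene Inha was 0.97 log2 above Th0 in Th22, and the activin receptor gene Acvr2a was lower in Th22 than in Th17, by -2.23 log2. Foxf2, the sister of Foxf1, was highest in Th17, at 1.51 there, -0.08 on Th22 and 0 on Th0. The other early B cell factors, SoxD factors and natriuretic peptide receptors and ligands differed by at most 0.13 log2 between Th22 and either other array.

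**Figure D3:**
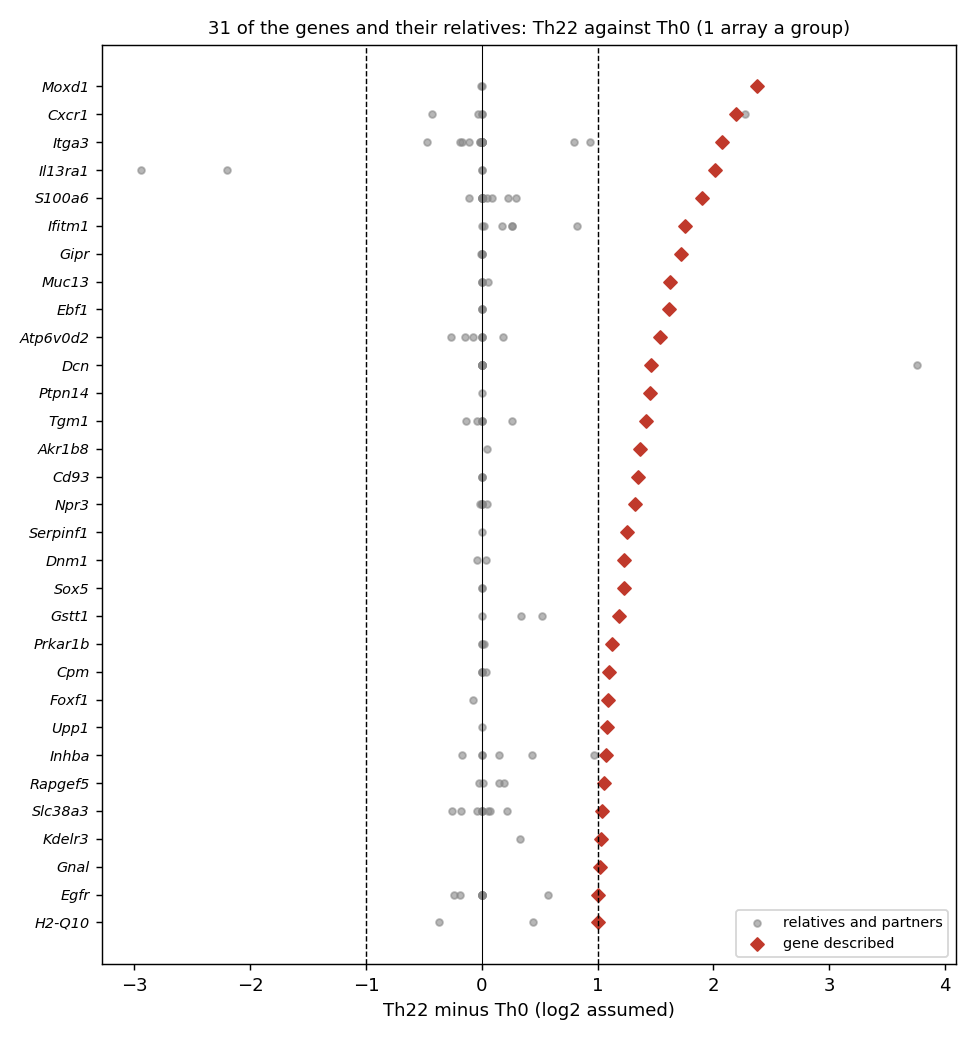
Difference of Th22 from Th0, in log2 units, for 31 of the genes (red diamonds) and their relatives and partners (grey circles), 1 family a line. Apart from Lum beside Dcn and Cxcr2 beside Cxcr1 every grey point lies below the upper dashed line at 1, and the points near -2.94 and -2.20 beside Il13ra1 are Il13 and Il4.

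Some of the genes had a neighbour that was also high. Gene order was taken from RefSeq, assembly GRCm38.p6, and used for neighbours alone, since no source names the build behind the array annotation. The 35 genes had 66 measured direct neighbours, of which 2 were past both thresholds, Lum beside Dcn and Cxcr2 beside Cxcr1, and the median of the neighbours was 0 in both comparisons. At least 2-fold higher than Th17 were 5 of the 66, Lum, Cxcr2, Ifitm2, Ifitm3 and Gstt3, all relatives of the gene beside them. Over all genes 0.241% were past both and 1.5% that far above Th17. Lumican (Lum), a proteoglycan of the same family as decorin, lay at 3.76 on Th22, 0 on Th0 and -0.38 on Th17, and the next genes Kera and Epyc at 0 on Th22 and Th0. Cxcr2 lay at 1.88, -0.39 and 0, close to Cxcr1, while the flanking Rufy4 and Arpc2 were 0.32 and 0.11 log2 above Th0. Lum and Cxcr2 were among the genes left out by name.

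Ifitm1 and Gstt1 lie among relatives, some of which were also higher in Th22 than in Th17. Ifitm2 and Ifitm3, on either side of Ifitm1, were 1.69 and 4.90 log2 higher in Th22 than in Th17 and 0.26 and 0.82 log2 above Th0. Ifitm5 and Ifitm6 were 0.20 and 0.17 log2 above Th17. Ifitm7, a relative that does not lie in this group, was lower in Th22 than in Th17, by -1.11 log2. Gstt3 and Gstt2, around Gstt1, were 1.61 and 1.23 log2 above Th17 and 0.34 and 0.52 above Th0, while Gstt4 was equal on all arrays. Ddt, a nearby gene that is no transferase of this class, was 1.04 log2 above Th17 and 0.39 above Th0. Signal may be shared between such relatives, as also among the H2-Q genes, so its assignment to single members is uncertain.

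**Figure D4:**
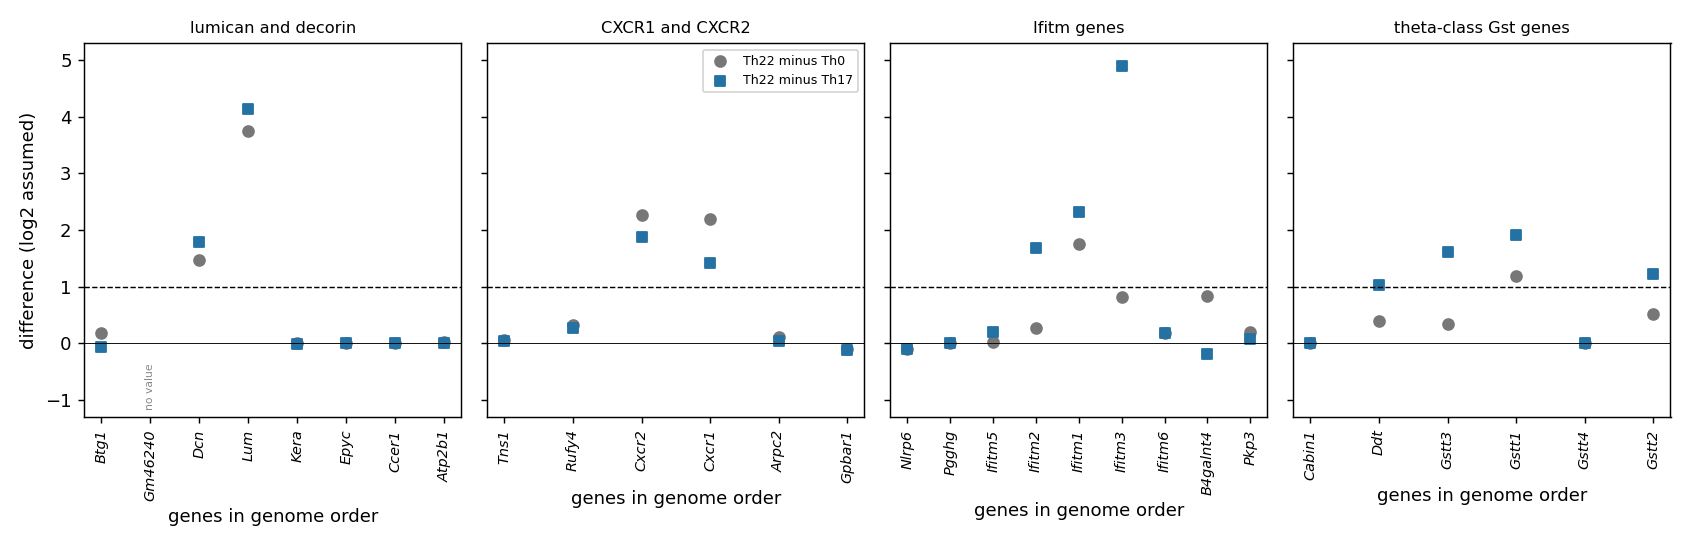
Differences of Th22 from Th0 (grey circles) and from Th17 (blue squares), in log2 units, for genes in genome order at 4 places that hold one of the 35 genes, with the dashed line at 1. High values were next to each other at Dcn and Lum and at Cxcr2 and Cxcr1, whereas in the Ifitm and theta-class Gst groups only Ifitm1 and Gstt1 passed the line in grey.

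Wider gene lists put the 35 genes in context. None of 31 measured IL-6 and STAT3 response genes was past both thresholds. Il23r and Iltifb, which passed both, were not on this list, so that count depends on how the list was drawn up. In that list Il17f, Timp1, Il17a, Il21, Rora and Tnfrsf8, 6 genes, lay at least 1 log2 above Th0, while 9 lay at least 1 log2 below Th17, and the medians were 0.11 and -0.05 log2. Over all genes, 0.547% were at least 1 log2 above Th0 and 0.261% that far below it, while 1.5% were that far above Th17 and 1.1% that far below it. Of 31 interferon-response genes 2 passed both, Ifitm1 and Dhx58, while 9 were higher than in Th17 and 1, Usp18, lower than in Th0, with medians of 0 and 0.30. Of 17 chemokine receptor genes 3 passed both, Cxcr1, Cxcr2 and Cxcr3, and Ccr8 was lower than on both other arrays (-2.59 and -2.26 log2). Against Th17, 3 of the 17 were at least 1 log2 higher and 4 that far lower. Beside Ccr8 the lower ones were Cxcr5 (-2.18), Cxcr6 (-2.11) and Ccr6 (-1.04). Of 9 IL-1 receptor family genes 2 passed, Il1r2 and Il18r1, of 21 matrix genes 2, Lum and Dcn, and of 12 cadherins 1, Cdh17. None of 18 NK-type lectin receptor genes passed both. In these lists the matrix gene Timp2 and the lectin receptor gene Klrd1 were lower in Th22 than in Th17, by -1.80 and -2.92 log2. Over all genes the share past both was 0.241%, but some of these lists were written around genes already known to pass, so no list is read against it or the other shares.

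Several of the 35 genes mark other cells, and the cultures held presenting cells, although the CD4 T cells were sorted as naive cells at the start and purified magnetically before RNA was taken. Ebf1 was the only one of 9 measured B cell markers to differ by 2-fold, and 6 of them, though not Ebf1, were equal on all 3 arrays, with the summed differences of the list at -0.16 on Th0, 1.54 on Th22 and -1.05 on Th17. Ebf1 alone lay at 0, 1.62 and -1.05, so the Th22 and Th17 sums were almost wholly its own. Of 9 fibroblast markers Dcn and Lum passed both thresholds and 7 did not differ by 2-fold, with sums of -0.07, 5.26 and -0.66. Lum at 3.76 and Dcn at 1.47 made up nearly all of that Th22 sum. Of 10 neutrophil markers Cxcr2 passed both, Ly6g was 4.29 log2 above Th0 and 0.42 above Th17, and 6 were equal on all arrays, with sums of -4.12, 2.30 and 0.01. Cxcr2 at 1.88 made up most of that Th22 sum. Ebf1, Lum, Dcn and Cxcr2 all passed the rule by their Th22 values. The high Th22 sums of these lists thus follow from the rule and say nothing of the other markers. None of 15 myeloid and dendritic cell, 8 mast cell and basophil, 6 erythroid and platelet or 2 gamma-delta T cell markers differed by 2-fold between Th22 and another array. Among 9 markers of CD8 and NK cells, Cd8b1 and Gzma were higher than in Th17 by 1.14 and 2.28 log2, and none of 7 CD4 T cell markers differed by 2-fold. In a check of the subsets, 2 of 7 measured marker genes, Il17a and Il17f, were at least 2-fold above Th0 in Th22 and 4 were below it, Ifng, Il4, Gata3 and Tbx21. Against Th17, Tbx21 and Gata3 were higher in Th22 by 2.66 and 2.65 log2, and Foxp3, Il17a and Il17f were lower, by -3.65, -1.99 and -1.39 log2. The part of other cells in the values of Ebf1, Dcn and Cxcr1 was not tested.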

How the data were processed

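Total RNA of 3 cultures was measured on 1 single-colour array each, and samples were grouped by the T-helper subset of their labels. The authors deposited log2 values (base assumed) of 28853 probes. Each probe's median over the arrays was 0, in all 28853, so the values are centred per probe. Background correction, probe summary and software were not given in the sources used here. Of the probes, 40.3% were equal on all 3 arrays.

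Of 21789 probes with 1 gene symbol in the platform annotation, 21698 matched RefSeq (GRCm38.p6) by Entrez identifier, and probes of a gene were averaged, giving 19938 genes. Gene counts leave out 1621 probes with several symbols and 5443 absent from the annotation. Genes were counted past a difference of 1, with no filter and no test. The genes named are the 35 members, the 4 just inside and 4 just outside the threshold, some members of fixed lists past 2-fold, and relatives and neighbours chosen after the members were known. List genes that are not named may also be past 2-fold against Th0 or Th17. The members and lists were chosen with earlier results of these data known. Python 3.11.15, pandas 2.3.3 and numpy 2.4.6 were used. Alternatives were quantile normalization, equal spread of the arrays, other ways to combine probes, thresholds of 0.8 and 1.5, and natural logs. The number of arrays limits the precision.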

Additional observations from a re-analysis of the deposited data

Results flagged for a closer look

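In 5 of the 35 genes Th22, by the rule that chose them, was at least 2-fold above Th0 while Th17 was at least 2-fold below it, so the single arrays of both cytokine conditions moved in opposite directions from the shared Th0 array. Th17 minus Th0 was -1.01 log2 for Ermn, -1.05 for Ebf1, -1.25 for Tgm1, -1.18 for Upp1 and -1.01 for Kdelr3. After quantile normalization the 5 lay at -0.77 to -0.61 log2 and after equal spread at -0.86 to -0.69, so 0 of them stayed 2-fold below Th0. Both scalings narrow the Th17 array, whose SD was the largest, so its large values shrink whatever the gene. The 0 thus says nothing of these 5 genes in particular. These differences were not tested, since each condition had 1 array.

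Among 5443 probes with no gene in the platform annotation, which no comparison above used, 6 lay at least 1 log2 above both other arrays on the Th22 array (0.110%, against 0.234% of probes with 1 symbol). The largest was 2.35 log2 above Th17 and 3.84 above Th0. A pair of the 6 probes had almost the same values, each 1.76 log2 above Th17, and so had another pair, each 1.21 log2 above Th17.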

How the results depend on the processing

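All 35 genes kept both differences under quantile normalization, equal spread of the arrays and the probe of largest range. The first 2 settings widen the Th22 array, whose SD was the smallest, so keeping the genes there is no check of them. The smaller difference of H2-Q10, for instance, went from 1.001 to 1.31 and 1.52. Only the 2 genes with more than 1 probe could change under the probe of largest range or where every probe had to pass. The lower cut-offs of 0.8 and natural logs keep all 35 by construction. Of the 35, 34 kept both differences where every probe had to pass (Foxf1 did not) or where probes with several symbols were counted (Olfr60 did not), and 8 at a threshold of 1.5. The count of such genes was 63 after quantile normalization, 85 after equal spread, 57 at 0.8, 8 at 1.5 and 80 with natural logs. Both scalings force a common spread on arrays whose SD was 0.12 for Th22, 0.17 for Th0 and 0.28 for Th17. Genes higher in Th22 than in Th0 numbered 109 as reported, 150 after quantile normalization, 189 after equal spread, 171 at 0.8, 39 at 1.5 and 233 with natural logs. Those higher than in Th17 numbered 300 as reported, 202 after quantile normalization, 265 after equal spread, 420 at 0.8, 147 at 1.5 and 519 with natural logs. Genes of the set with Th17 at least that far above Th0 were 0 as reported, 2 after equal spread, 1 at 0.8 and 3 with natural logs. Those with Th17 that far below Th0 were 5 as reported, 2 after quantile normalization, 2 after equal spread, 0 at 1.5 and 14 with natural logs. Each setting chooses its own set, and the 2 genes counted after either scaling are not among the 35, of which 0 had Th17 2-fold below Th0 there. No paired analysis was possible because each group had 1 array. Signal over background is unknown.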
